A study of Mus musculus with 224 samples.

Results

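The prefrontal cortex (PFC) and the nucleus accumbens (NAC) of ethanol naïve mice were compared on 24 arrays, 12 from each region, out of 224 arrays in the whole series. These were all PFC and NAC arrays whose labels give air in place of ethanol vapor and no access to ethanol, the Air NonDrinking group. The mice were male C57BL6/J animals bought at 10 weeks of age. They spent 16 h a day for 4 days of each of 4 cycles in vapor chambers that held air, were injected with saline and pyrazole (1 mmol/kg), an inhibitor of alcohol dehydrogenase, before the sessions, and had water alone to drink. Each cycle of every group also held 72 h of abstinence from ethanol after the chambers. CIE, in the names of other groups, stands for chronic intermittent ethanol vapor. Drinking stands for limited daily access to an ethanol solution beside water. The other groups, on 70 PFC and NAC arrays, were Air Drinking, CIE NonDrinking and CIE Drinking. Pyrazole and the chambers were shared by every group, and no array stands for an animal without them. The 12 mice, numbered 45 to 56 by the labels, each gave 1 PFC and 1 NAC array, and a mouse was taken as the replicate. RNA came from whole dissected tissue, so that fewer cells of a type and less RNA per cell cannot be told apart in any value below.

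Expression was measured on Affymetrix mouse genome arrays, on which a gene is read by 1 or more probesets. The authors normalized each region by itself, and the deposited log2 values kept that trace, with array medians between 6.07 and 6.13 in the PFC and between 7.01 and 7.07 in the NAC. Each value was therefore replaced by its percentile rank within its own array, from 0 for the dimmest to 100 for the brightest of 45027 probesets with values in both regions. A difference of 1 point means that a probeset passed 1% of all probesets of the array. Ranks crowd near the top, where even a large change moves a gene by few points, so a log2 difference after quantile normalization of the 24 arrays together is given beside the rank for the genes described most closely. A rank compares a probeset with itself in the other region and not a gene with another gene. Region and the separate processing of the regions cannot be told apart.

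Ranks of arrays within the PFC correlated with a mean Pearson r of 0.993 and within the NAC of 0.995, against 0.956 between regions, as a description over probesets. With LIMMA, 15409 of 45027 probesets (34.2%) were higher in the NAC and 16116 (35.8%) were higher in the PFC at an adjusted p of 0.01 or less. By the brightest probeset of each gene, 6605 of 18192 genes (36.3%) were higher in the NAC and 6268 (34.5%) in the PFC. So many calls mean that a call alone sets a gene apart from few others. A difference of 20 points or more was therefore called large. It was met by 235 genes (1.29%) in favor of the NAC and by 216 genes (1.19%) in favor of the PFC. All 12 arrays of a region lay above all 12 of the other for 7143 genes (39.3%), among them 428 of the 451 genes with a large difference. The median difference over all genes was 0.07 points (NAC minus PFC), with quartiles of -2.85 and 3.50. With log2 values centered on each array's median instead, the median gene was shifted by -0.24 toward the PFC, and the share of called probesets that were higher in the NAC was 34.3% in place of 48.9%. Among genes with a large difference it was 29.1%, with large set at 1 on that scale, in place of 52.1%. Of all genes, 4708 (25.9%) were higher in the NAC and 10000 (55.0%) in the PFC on the centered scale. Counts of lists on that scale below are to be read against these shares with caution, since the regions differed in spread. Quartiles of the log2 values were 4.253 and 8.424 for PFC arrays but 5.348 and 9.018 for NAC arrays. The PFC quartiles thus lay farther from their median, and centering tilts bright probesets toward the PFC. Shares over all genes are therefore no fair background for a list of bright genes. Centered counts of such a list are no check on its direction. Counts of lists on the rank scale are to be read against 36.3% and 34.5%, and counts of genes without overlap against 39.3%. A count near its share says nothing particular about a list.

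**Figure D1:**
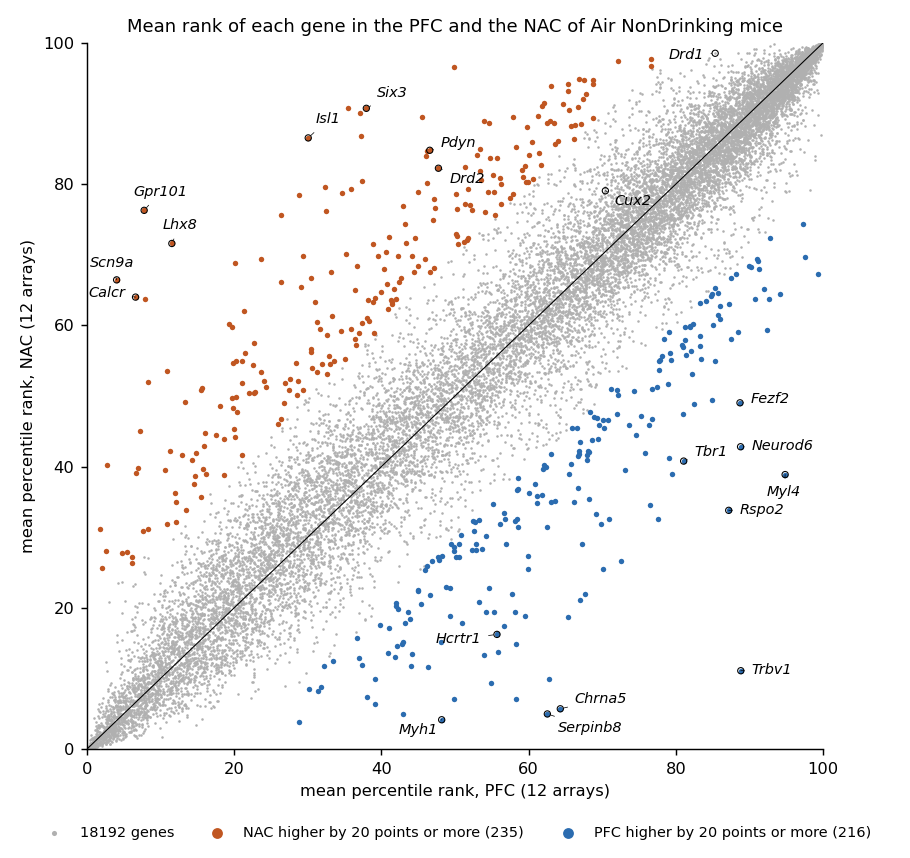
Mean percentile rank of 18192 genes in the PFC (x axis) and the NAC (y axis), each over 12 arrays of Air NonDrinking mice; colored points differ by 20 points or more at an adjusted p of 0.01 or less, and the line marks equal rank. Most genes lie along the line, 235 stand above it and 216 below it, with Gpr101, Scn9a and Lhx8 far above and Trbv1 and Chrna5 far below.

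Several arrays stood apart from their group in genes of the neighboring tissue. In the NAC, the arrays of mice 45 and 55 ranked genes of cortical excitatory neurons higher than the other 10 arrays did. The mean over 18 such genes was 79.4 and 76.0 in these arrays, between 58.8 and 71.1 in the other NAC arrays and between 81.7 and 83.9 in the PFC. Neurod6, a transcription factor of cortical excitatory neurons, ranked at 92.5 and 80.8 in the NAC of mice 45 and 55 and between 8.6 and 71.2 in the other 10. The mean over 16 genes of striatal projection neurons was 92.3 and 92.6 there, within the NAC range of 92.0 to 94.5. The means over 8 direct pathway genes (79.0 in both) and 19 striatal transcription factors (70.8 and 71.7) were the lowest of the NAC in these arrays. For 5 indirect pathway genes the means were 85.9 and 86.6, within the NAC range of 84.7 to 87.4. Drd2 had its lowest NAC ranks in the same arrays, at 78.2 and 78.7 against 78.9 to 85.1 in the others. In the PFC, arrays differed in the striatal genes. The mean over the same 16 genes ran from 77.8 (mouse 54) and 78.5 (mouse 49) to 84.8, and Gpr6, an orphan receptor of indirect pathway neurons, ranked at 16.6 and 30.6 in these mice against 41.3 to 65.8 in the other 10. The PFC arrays of mice 49 and 54 also had the highest ranks of Fos, at 94.9 and 95.5. Meningeal genes were high in a different set of PFC arrays, those of mice 45, 48, 52 and 55, without which 30415 probesets and 472 genes with a large difference were called. The part of neighboring tissue in any difference was not tested. Without the NAC arrays of mice 45 and 55, 30929 probesets and 494 genes with a large difference were called, against 31525 and 451 with them. Values without these arrays stand beside many of the cortical genes below that had their highest NAC ranks in them. They also stand beside some genes higher in the NAC. A gene given without such a value may still have been moved by these arrays.

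**Figure D2:**
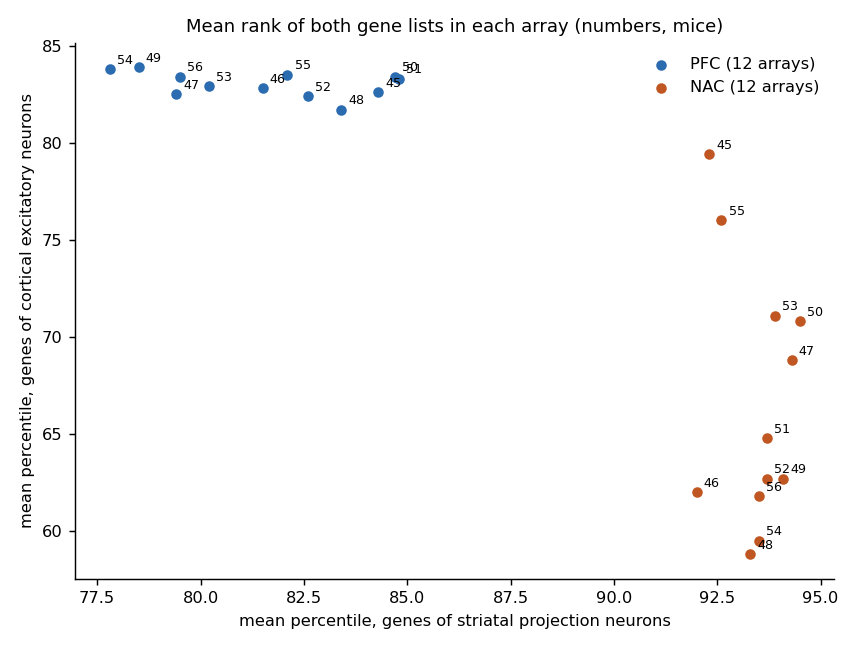
Each point is 1 array, numbered by mouse, placed by its mean percentile rank over 16 genes of striatal projection neurons (x axis) and over 18 genes of cortical excitatory neurons (y axis). Regions form separate groups on the x axis, while the NAC arrays spread from 58.8 to 79.4 on the y axis, with mice 45 and 55 nearest to the PFC.

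Most neurons of the NAC are projection neurons that use GABA and receive dopamine from the midbrain. They are commonly divided into cells with the D1 receptor and the peptides substance P and dynorphin, called the direct pathway, and cells with the D2 receptor and enkephalin, called the indirect pathway. D1 receptors raise and D2 receptors lower cyclic AMP, which acts through protein kinase A and DARPP-32 and is broken down by phosphodiesterases. The PFC is built mainly of glutamatergic pyramidal neurons in layers, with fewer GABA interneurons, and sends dense projections to the NAC.

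Genes shared by both kinds of striatal projection neuron were higher in the NAC. Of 16 measured genes of that list, 16 were higher in the NAC and none in the PFC, with a median difference of 11.1 points, and 14 of them did not overlap between the regions. Centered log2 values called 13 higher in the NAC and none in the PFC. Gng7, a G protein subunit of the receptor pathway to adenylyl cyclase, had 57.0, 65.4 and 72.2 in PFC arrays and 92.0, 94.5 and 95.0 in NAC arrays (lowest, median and highest array). It was 28.7 points higher in the NAC (SE 1.40, adjusted p = 2.4e-15 by LIMMA), or 3.21 on the log2 scale. Rasgrp2, an exchange factor for Rap, had 56.6, 64.2 and 71.8 in PFC arrays and 80.4, 86.6 and 89.3 in NAC arrays, a difference of 22.1 points (SE 1.75). Its arrays did not overlap and all 3 of its other probesets were higher in the NAC. Ppp1r1b, which encodes DARPP-32, ranked at 75.7, 80.0 and 84.4 in PFC arrays and 93.4, 96.1 and 96.6 in NAC arrays. Rgs9, a regulator of D2 receptor signaling, ranked at 66.3, 78.8 and 85.5 in PFC arrays and 94.8, 96.2 and 97.4 in NAC arrays, and Pde10a, the phosphodiesterase typical of these cells, at 77.0, 82.0 and 88.8 in PFC arrays and 97.7, 98.6 and 98.9 in NAC arrays. All 3 genes separated the regions, with differences of 15.2, 18.3 and 16.3 points and log2 differences of 2.16, 2.53 and 2.93. Adcy5, the main striatal adenylyl cyclase, was 10.7 points higher (SE 0.72), and Ptpn5, the striatum-enriched tyrosine phosphatase STEP, 13.7 points higher (SE 0.53).

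Drd1 and Drd2, the main dopamine receptors of the striatum, were higher in the NAC. Drd1 had 78.9, 86.3 and 89.2 in PFC arrays and 97.8, 98.5 and 98.8 in NAC arrays, and Drd2 had 31.0, 49.4 and 58.5 in PFC arrays and 78.2, 83.2 and 85.1 in NAC arrays. No PFC array reached any NAC array for either gene. Drd1 was 13.2 points higher in the NAC (SE 0.97, adjusted p = 7.3e-12 by LIMMA) and Drd2 34.5 points (SE 2.79, adjusted p = 4.2e-11), which on the log2 scale came to 2.59 (SE 0.11) and 3.04 (SE 0.21). The other probeset of Drd1 was higher in the NAC too, by 16.3 points (SE 1.24). Within the PFC, Drd2 was lowest in mice 54 and 49, at 31.0 and 32.3, the arrays with the lowest striatal genes. Drd3 was dim in both regions, at 0.7, 3.2 and 5.2 in PFC arrays and 4.5, 9.4 and 10.9 in NAC arrays, yet 5.9 points higher in the NAC (SE 0.62, adjusted p = 4.9e-09), a call that centered log2 values did not give. Drd4 differed by 0.8 points with an SE of 1.09 and was not called. Of 13 measured genes of dopamine receptors and dopamine handling, 9 were higher in the NAC and 1 in the PFC, the latter being Gprin1, a regulator of neurite growth, by 15.2 points (SE 0.68). Under centered log2 values these counts became 6 and 3.

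**Figure D3:**
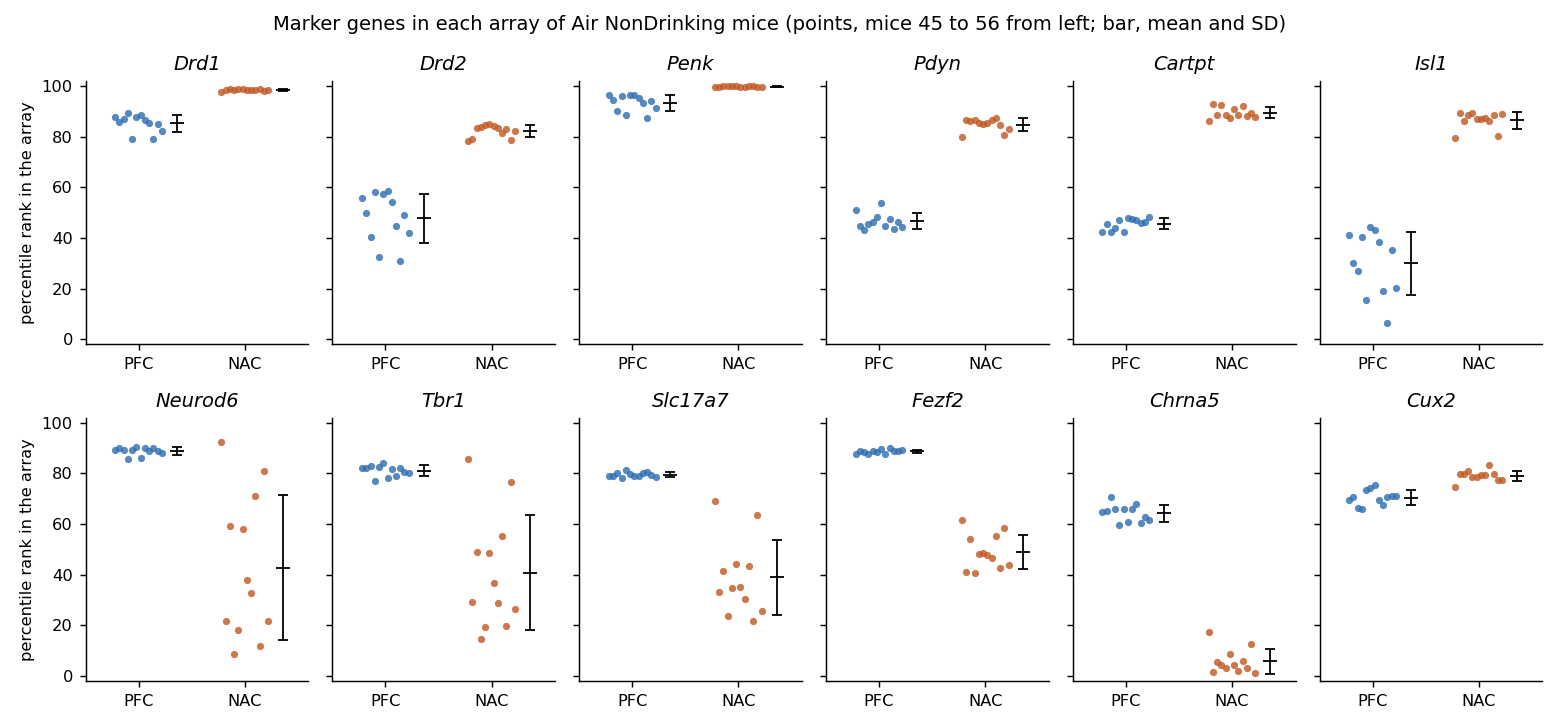
Percentile rank of 12 genes in each of the 24 arrays, with 12 PFC and 12 NAC arrays ordered by mouse number from 45 to 56 and bars for the mean and the SD. The genes from Drd1 to Isl1 separate the regions with the NAC above, Slc17a7, Fezf2 and Chrna5 do so with the PFC above, the NAC arrays of Neurod6 and Tbr1 spread widely and reach the PFC range through mouse 45, and Cux2 is higher in the NAC.

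Direct and indirect pathway genes were described by their own lists. Of 8 direct pathway genes, 6 were higher in the NAC and 2, Eya1 and Sfxn1, in the PFC by 3.7 and 1.0 points, neither of which was called from the mean over its probesets. Isl1, a transcription factor of direct pathway cells, had 6.4, 32.8 and 44.3 in PFC arrays and 79.5, 87.3 and 89.3 in NAC arrays. It was 56.4 points higher in the NAC (SE 3.59), a log2 difference of 4.78, and its PFC arrays spread widely, with the lowest value in mouse 54. Slc35d3, a transporter that takes part in the surface expression of D1 receptors, had 23.7, 37.4 and 50.7 in PFC arrays and 81.7, 87.2 and 90.0 in NAC arrays and a difference of 49.5 points (SE 2.85). Of 8 indirect pathway genes, 5 were measured, and Adora2a, Sp9 and Gpr52 were not among them. All 5 were higher in the NAC, with a median of 34.5 points. Gpr6 had 16.6, 56.6 and 65.8 in PFC arrays and 95.2, 96.6 and 97.3 in NAC arrays, the widest PFC range of the list, and was 46.7 points higher in the NAC (SE 4.11). Upb1, an enzyme of pyrimidine breakdown, had 16.4, 27.4 and 32.5 in PFC arrays and 62.5, 65.6 and 71.5 in NAC arrays and a difference of 39.6 points (SE 1.35).

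Opioid and other peptides carried large differences. Of 8 opioid genes, 6 were higher in the NAC and 2 in the PFC. Pdyn, which encodes the dynorphin precursor, had 43.0, 45.9 and 53.7 in PFC arrays and 79.8, 85.4 and 87.3 in NAC arrays, so that its lowest NAC array lay well above its highest PFC array. The difference was 38.2 points (SE 1.11, adjusted p = 1.7e-19 by LIMMA) or 3.44 on the log2 scale. Penk, the enkephalin precursor, ranked at 87.3, 94.3 and 96.4 in PFC arrays and 99.7, 99.8 and 99.9 in NAC arrays, near the ceiling of the scale, and its difference of 6.6 points came with one of 2.48 (SE 0.16) on the log2 scale. Among the receptors, Oprm1 (mu) had 16.2, 22.1 and 28.2 in PFC arrays and 48.4, 54.6 and 57.8 in NAC arrays and Oprk1 (kappa) 42.9, 53.2 and 56.0 in PFC arrays and 71.8, 76.9 and 81.6 in NAC arrays, and they were 31.7 and 25.9 points higher in the NAC (SE 1.20 and 1.49). Of the 3 other probesets of Oprm1, 1 was called and was higher in the NAC. The delta receptor Oprd1 went the other way. It had 40.2, 43.8 and 46.0 in PFC arrays and 23.7, 29.5 and 32.1 in NAC arrays and was 14.5 points higher in the PFC (SE 0.77, adjusted p = 1.3e-14). Pnoc, the precursor of nociceptin, was likewise higher in the PFC, by 17.3 points (SE 1.63).

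Other peptides and peptide receptors were split between the regions, with 15 of 34 measured genes higher in the NAC, 16 in the PFC and a median of -0.3 points (NAC minus PFC). Cartpt, the precursor of the CART peptides, had 42.3, 46.1 and 48.3 in PFC arrays and 86.2, 88.7 and 93.0 in NAC arrays, a difference of 43.9 points (SE 0.89) and a log2 difference of 4.11. Nts, which encodes neurotensin, had 19.6, 30.5 and 38.6 in PFC arrays and 65.3, 78.5 and 86.8 in NAC arrays and was 49.5 points higher in the NAC (SE 2.66), while its receptor Ntsr1 was 19.0 points higher in the PFC (SE 1.59). Tac1, the substance P precursor, ranked at 91.0, 93.0 and 95.0 in PFC arrays and 99.3, 99.5 and 99.6 in NAC arrays, with a log2 difference of 2.21 (SE 0.07). Tacr3, the receptor of neurokinin B, had 30.3, 37.5 and 45.4 in PFC arrays and 71.0, 81.7 and 85.3 in NAC arrays and was 42.9 points higher in the NAC, with both other probesets called the same way. Receptors of neuropeptide Y differed in opposite directions. Npy2r was 49.2 points and Npy5r 13.4 points higher in the NAC (SE 1.85 and 0.84), and Npy1r was 16.7 points higher in the PFC (SE 0.99). Npy itself ranked at 97.4, 97.8 and 98.2 in PFC arrays and 96.6, 97.0 and 98.2 in NAC arrays, so that its arrays overlapped widely, and its small difference of 0.6 points toward the PFC was not called with the mouse as a block (adjusted p = 0.0165 by LIMMA). Hcrtr1, the orexin 1 receptor, had 53.3, 56.0 and 58.1 in PFC arrays and 14.1, 16.0 and 20.0 in NAC arrays, a gap with no overlap, and was 39.4 points higher in the PFC (SE 0.67, adjusted p = 1.0e-23 by LIMMA). Sstr3, a somatostatin receptor, was 38.0 points and Rxfp1, the relaxin receptor, 25.0 points higher in the PFC (SE 2.79 and 1.01). Cckbr, the brain receptor of cholecystokinin, was 18.3 points higher there (SE 0.59). Crh and Gal, which encode corticotropin-releasing factor and galanin, were 23.5 and 25.8 points higher in the NAC, but their arrays overlapped. Without mice 45 and 55 the differences were 28.0 and 29.8 points.

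**Figure D4:**
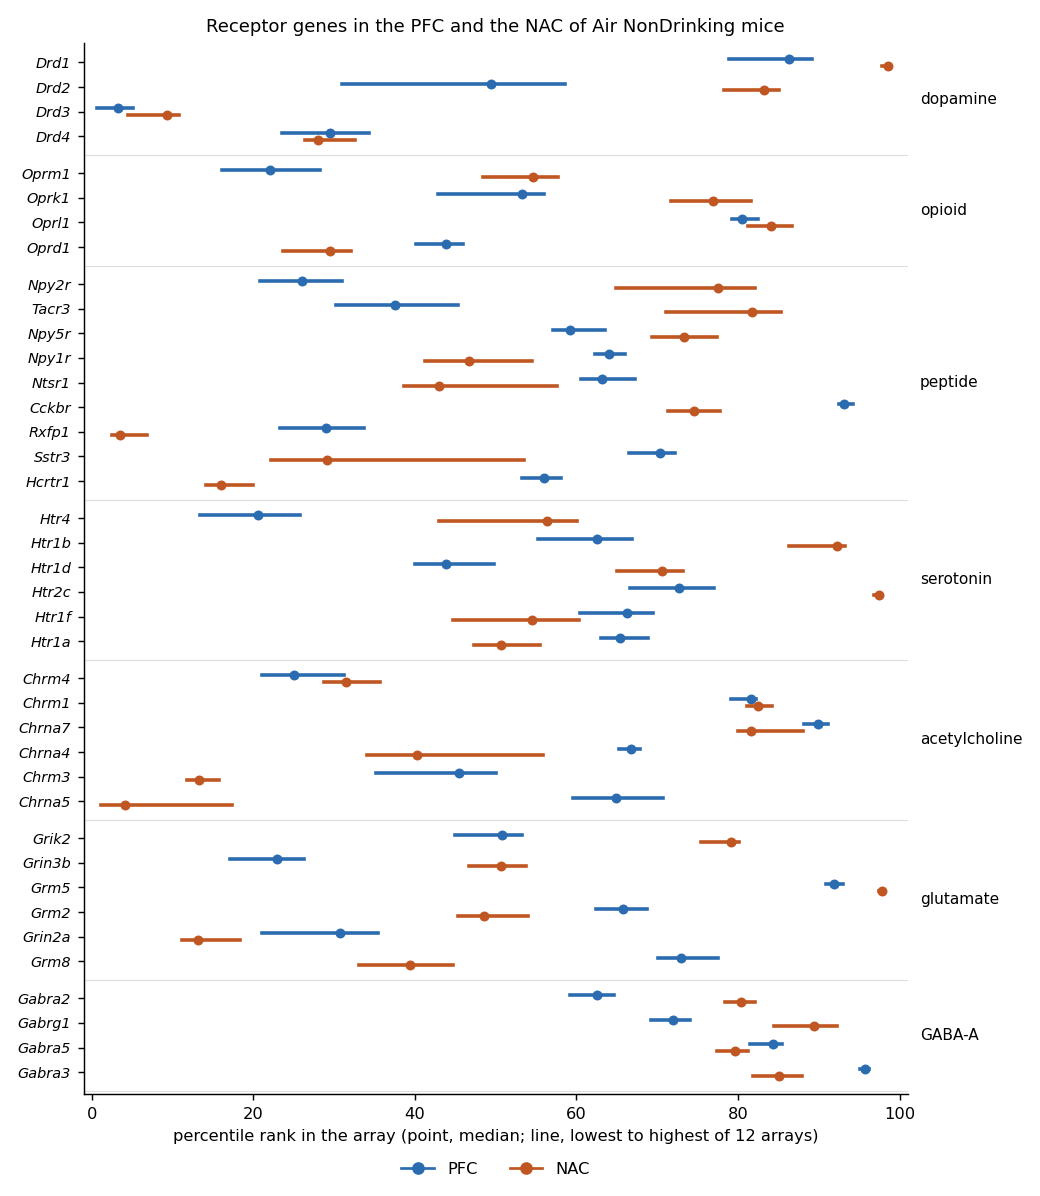
Percentile rank of receptor genes in the PFC and the NAC, grouped by transmitter, with the median as a point and the lowest to highest of 12 arrays as a line. Lines of Drd1, Drd2, Oprm1, Npy2r, Htr1b and Grik2 lie apart with the NAC above, those of Hcrtr1, Chrna5, Chrm3 and Grm8 lie apart with the PFC above, and those of Drd4 and Chrm1 overlap.

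Cyclic AMP can act on transcription through the factor CREB, which binds the element TGACGTCA or its core TGACG. Several of the genes above encode peptides and receptors of that pathway. The 250 bases before the starts of such genes, and of some cortical genes, were searched for TGACG on both strands. A full TGACGTCA thus counts as a pair of overlapping matches. Windows are those of RefSeq on GRCm38.p6. Of 15 genes looked up, 11 had a window, and those of Tac1, Cartpt, Nts and Gpr6 held a match. These 4 are shown 5′ to 3′ in the direction of the gene, with matches in capitals.
Tac1 (chr6:7554811-7555060, plus strand): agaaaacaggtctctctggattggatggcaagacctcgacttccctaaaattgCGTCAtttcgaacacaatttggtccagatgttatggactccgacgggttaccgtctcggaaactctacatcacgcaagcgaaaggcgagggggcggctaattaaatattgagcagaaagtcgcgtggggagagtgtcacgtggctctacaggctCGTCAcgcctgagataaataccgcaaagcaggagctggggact
Cartpt (chr13:99900684-99900933, minus strand): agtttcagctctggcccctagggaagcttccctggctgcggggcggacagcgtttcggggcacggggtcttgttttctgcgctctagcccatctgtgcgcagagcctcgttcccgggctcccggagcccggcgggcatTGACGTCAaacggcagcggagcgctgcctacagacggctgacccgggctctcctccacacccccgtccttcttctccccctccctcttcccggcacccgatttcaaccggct
Nts (chr10:102490419-102490668, minus strand): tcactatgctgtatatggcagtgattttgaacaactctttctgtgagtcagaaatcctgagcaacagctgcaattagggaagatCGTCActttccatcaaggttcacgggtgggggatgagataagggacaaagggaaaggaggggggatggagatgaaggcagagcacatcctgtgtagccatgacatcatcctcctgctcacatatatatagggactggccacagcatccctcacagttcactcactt
Gpr6 (chr10:41072291-41072540, minus strand): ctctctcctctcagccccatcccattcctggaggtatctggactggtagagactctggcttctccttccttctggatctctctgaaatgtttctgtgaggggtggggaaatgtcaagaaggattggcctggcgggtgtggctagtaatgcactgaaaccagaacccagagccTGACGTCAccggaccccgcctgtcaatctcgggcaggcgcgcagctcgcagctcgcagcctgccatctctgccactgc
Cartpt and Gpr6 held the full TGACGTCA, Tac1 held separate matches that begin at positions -197 and -43 from the start, and Nts held 1 match at position -166. None was found in the windows of Drd1, Drd2, Pdyn, Neurod6, Tbr1, Slc17a7 and Fezf2. Matches are common. They were present in 3744 of 14451 genes of the array with a window (25.9%), in 40 of 185 genes with a large difference toward the NAC (21.6%) and in 39 of 165 toward the PFC (23.6%). A match is a description of these letters and not a measured site.

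Most transcription factors of the striatum were higher in the NAC and most of those of the cortex in the PFC. Of 19 measured striatal factors, 16 were higher in the NAC and 2 in the PFC, with a median of 12.7 points. Six3 had 28.9, 38.0 and 47.1 in PFC arrays and 87.2, 91.3 and 92.1 in NAC arrays and was 52.8 points higher in the NAC (SE 1.78), or 4.84 on the log2 scale. Zfp503, a repressor of the developing striatum also known as Nolz1, had 41.2, 45.3 and 50.3 in PFC arrays and 79.5, 84.4 and 86.1 in NAC arrays and a difference of 37.8 points (SE 0.99). Dlx6, Rxrg, Rarb and Zic1 were higher in the NAC by 36.4, 31.2, 27.8 and 22.4 points, each with no overlap of arrays. Rarb and Rxrg encode retinoic acid receptors. Foxp1 and Meis2 ranked close to the top in both regions and still separated, with log2 differences of 1.12 and 1.84, and all 7 other probesets of Foxp1 and all 3 of Meis2 were higher in the NAC. Dlx1 and Sp8 were the members higher in the PFC, by 7.4 points (SE 1.18) and 8.5 points (SE 2.60), and Sp8 was not called without the PFC arrays of mice 45, 48, 52 and 55 (adjusted p = 0.0134 by LIMMA).

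Of 18 measured cortical factors, 13 were higher in the PFC and 4 in the NAC, with a median of -10.7 points. Fezf2, which specifies subcortical projection neurons, had 87.7, 88.8 and 90.0 in PFC arrays and 40.7, 47.9 and 61.4 in NAC arrays, with no overlap, and was 39.7 points higher in the PFC (SE 1.90, adjusted p = 1.9e-15 by LIMMA), a log2 difference of 3.70. Emx1, a factor of the cortical lineage, had 66.8, 68.9 and 70.9 in PFC arrays and 44.7, 48.0 and 56.8 in NAC arrays and was 19.9 points higher in the PFC (SE 1.13). Without mice 45 and 55 Fezf2 differed by 41.8 and Emx1 by 21.2 points. Neurod6 had 85.6, 89.2 and 90.3 in PFC arrays and 8.6, 35.4 and 92.5 in NAC arrays. The PFC arrays were within a few points of each other, while the NAC arrays covered most of the scale and overlapped the PFC through mouse 45. The difference was 46.0 points (SE 7.97, adjusted p = 1.3e-05) with all arrays and 54.7 points (SE 6.07) without mice 45 and 55, whose omission left no overlap. Tbr1, a factor of deep layer neurons, had 77.1, 81.9 and 84.0 in PFC arrays and 14.7, 32.8 and 85.6 in NAC arrays, and its difference of 40.3 points (SE 6.38) became 48.4 (SE 3.94) without these arrays. Sox5, Neurod1 and Neurod2 were higher in the PFC by 23.2, 24.1 and 17.2 points with all arrays and by 26.7, 30.7 and 20.5 without the pair.

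Transcripts of pyramidal neurons were higher in the PFC in most cases. Of 18 genes of cortical excitatory neurons, 15 were higher in the PFC and 3 in the NAC, with a median of -15.2 points. Without the NAC arrays of mice 45 and 55 these counts were 15 and 3 again, with a median of -17.70 points. Slc17a7, the vesicular glutamate transporter of cortical neurons, had 78.1, 79.2 and 81.2 in PFC arrays and 21.7, 35.1 and 69.1 in NAC arrays. No array of the regions overlapped, and the difference was 40.6 points (SE 4.14) with mice 45 and 55, at 69.1 and 63.7 the highest of the NAC, and 46.1 points without them. Rspo2, a secreted activator of Wnt signaling, had 85.2, 87.0 and 89.1 in PFC arrays and 18.6, 29.7 and 62.8 in NAC arrays and was 53.4 points higher in the PFC (SE 3.61), or 57.7 without these arrays. Nrn1, a membrane protein that promotes neurite growth, and Nptx1, a pentraxin of excitatory synapses, were 27.9 and 15.5 points higher in the PFC, with log2 differences of 3.65 and 3.00, and 32.3 and 17.6 points without these arrays. Cck ranked at 98.5, 98.8 and 99.2 in PFC arrays and 72.5, 80.5 and 99.4 in NAC arrays. The NAC array of mouse 45, at 99.4, reached the PFC level, and that of mouse 55, at 98.1, lay just below every PFC array. The difference of Cck was 14.9 points (SE 2.55) with both arrays and 17.8 without them. The 3 members higher in the NAC were Cbln4 by 29.7 points (SE 2.56), Rspo1 by 14.6 points (SE 1.45) and Camkv, a kinase relative of synaptic vesicles, by 2.3 points (SE 0.17), which centered log2 values did not call. Cbln4 and its relative Cbln2, which encode secreted organizers of synapses, thus differed in opposite directions, since Cbln2 was 30.0 points higher in the PFC (SE 1.20).

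Markers of upper cortical layers had no common direction, while markers of deep layers had large differences only toward the PFC. Cux2, a factor of upper layer neurons and the marker proposed for the PFC, went against that role here. It had 65.8, 70.7 and 75.3 in PFC arrays and 74.8, 79.4 and 83.3 in NAC arrays and was 8.6 points higher in the NAC (SE 1.01, adjusted p = 3.2e-08 by LIMMA). Its lowest NAC array, that of mouse 45, lay below 1 PFC array. Of its other probesets, 1 was 9.5 points higher in the NAC (SE 0.63) and 1 was higher in the PFC (NAC minus PFC -2.7 points, SE 0.65). Of the 13 measured upper layer genes, 7 were higher in the NAC and 4 in the PFC, with a median of 1.7 points, and under centered log2 values 3 and 7. Kcnh5, a potassium channel, and Nectin3, an adhesion molecule, were 13.5 and 11.7 points higher in the PFC (SE 0.97 and 1.28). Nectin3 was not called from the mean over its probesets (adjusted p = 0.0286 by LIMMA). Calb1, which encodes the calcium buffer calbindin that is also abundant in the striatum, was 8.6 points higher in the NAC (SE 0.31, log2 difference 2.31). The mean rank over the list ran from 74.2 to 76.7 in the PFC and from 74.8 to 76.6 in the NAC. Of 15 deep layer genes, 8 were higher in the PFC and 6 in the NAC, with a median of -10.9 points, and 10 and 5 under centered log2 values. The difference was large for 6 of them, all toward the PFC. The mean rank over the list ran from 83.7 to 85 in the PFC and from 66.3 to 82.9 in the NAC. Cplx3, a complexin of subplate neurons, had 78.5, 81.4 and 86.4 in PFC arrays and 36.2, 48.2 and 81.8 in NAC arrays and was 29.2 points higher in the PFC (SE 4.36), or 34.5 without mice 45 and 55. Ccn2 and Nr4a2, both known from the same layer, were 22.9 and 24.2 points higher in the PFC, and 27.4 and 30.0 points without these arrays. Nr4a2 overlapped between regions either way. Crym, a thyroid hormone binding protein, was higher in the NAC, with a log2 difference of 1.99 (SE 0.06).

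**Figure D5:**
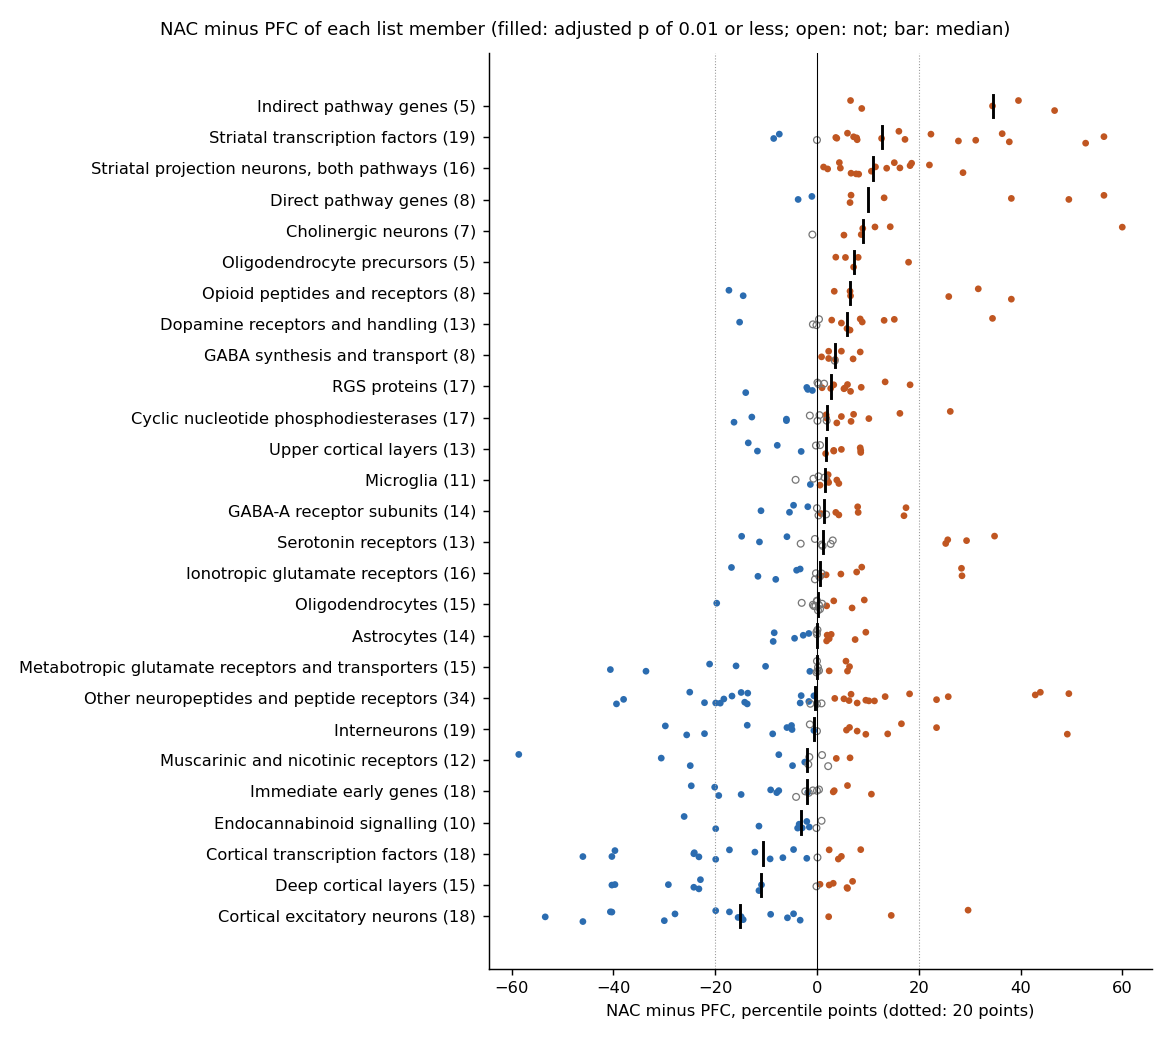
Difference between the regions (x axis, NAC minus PFC in percentile points) for each measured gene of 27 lists, with the number of genes in parentheses; filled points passed an adjusted p of 0.01 and bars are medians. Striatal lists lie to the right with medians up to 34.5 points, cortical excitatory neurons, deep layers and cortical factors lie to the left, and the lists of upper layers, oligodendrocytes, astrocytes and microglia straddle 0.

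The largest differences in favor of the NAC were those of Gpr101, Scn9a, Lhx8, Calcr and Isl1, chosen for their size among genes whose arrays did not overlap, so that their size is a description. Gpr101, an orphan receptor coupled to cyclic AMP, had 1.6, 7.9 and 13.5 in PFC arrays and 52.7, 81.8 and 85.4 in NAC arrays, 68.5 points apart. Scn9a, the sodium channel Nav1.7 known from pain neurons, had 0.4, 3.9 and 8.9 in PFC arrays and 61.7, 66.9 and 70.0 in NAC arrays and a difference of 62.4 points (SE 0.96). Its other 4 probesets were higher in the NAC as well, by 5.1 to 46.2 points. Lhx8, a factor of cholinergic neurons of the basal forebrain, had 3.6, 11.6 and 20.7 in PFC arrays and 56.4, 71.9 and 82.6 in NAC arrays and a difference of 60.0 points, and its lowest NAC arrays were those of mice 45 and 55. Calcr, the calcitonin and amylin receptor, had 3.2, 6.0 and 10.6 in PFC arrays and 37.8, 66.7 and 73.2 in NAC arrays, a difference of 57.4 points. Without the NAC arrays of mice 45 and 55 the differences of Gpr101, Lhx8 and Calcr were 73.1, 62.9 and 61.1 points. The lowest NAC arrays of these genes were then at 73.0, 69.3 and 58.7. Next came Mei4, a meiotic recombination gene, at 55.7 points, Dlk1, a Notch ligand relative, at 55.3 points, and Sdr39u1, an oxidoreductase, at 53.0 points. For Sdr39u1 the other probeset was higher in the PFC, so that the direction of the gene depends on the probeset. Six3, Nts, Slc35d3, Npy2r, Tcfl5, AW551984 and Gpr6 complete the 15, with 52.8 down to 46.7 points.

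In favor of the PFC the largest difference was that of Trbv1, a segment of the T cell receptor beta locus. The probeset belongs to a class whose probes can also match other sequences, as does that of Scn9a. Trbv1 had 87.3, 89.0 and 90.7 in PFC arrays and 4.9, 10.6 and 17.8 in NAC arrays, 77.7 points apart, and its other probeset was also higher in the PFC, from a mean of 44.5 there to 21.7 in the NAC. Chrna5, the nicotinic receptor subunit alpha 5 that is known from layer VI of the cortex, had 59.6, 64.9 and 70.7 in PFC arrays and 1.1, 4.1 and 17.3 in NAC arrays. It differed by 58.6 points (SE 1.65, log2 difference 4.12), the NAC arrays of mice 45 and 55 were its highest there, at 17.3 and 12.4, and its other probeset had a mean of 53.7 in the PFC and 8.6 in the NAC. Without these arrays the difference was 60.4 points. Serpinb8, a protease inhibitor, had 59.1, 62.7 and 65.0 in PFC arrays and 1.7, 4.6 and 8.7 in NAC arrays, and Myl4, an atrial and embryonic myosin light chain, had 94.3, 94.8 and 95.3 in PFC arrays and 32.1, 37.4 and 49.6 in NAC arrays, with differences of 57.6 and 56.0 points. Another probeset of Myl4 differed less, with a mean of 45.6 in the PFC and 40.4 in the NAC. Rspo2, Tnmd, Catsperz, Cpne9, Myh3, Npr3, Myhas, Pappa2, Wnt9a, Ovol2 and Myh1 followed, with 53.4 down to 44.0 points. The NAC arrays of mice 45 and 55 stood far above the rest for Wnt9a, at 64.2 and 56.6, and for Npr3, at 52.2 and 44.1, and without them the highest NAC arrays were at 31.9 and 20.5.

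Of these 15 genes, 4 are myosin chains or an RNA from their cluster. Myh3 and Myh1 encode the embryonic heavy chain and a fast muscle heavy chain, and Myhas is an antisense RNA of the heavy chain cluster. Heavy chain genes are close in sequence and Myhas overlaps their locus, so that the gene behind each probeset is uncertain. Myh3 had 70.1, 72.5 and 74.8 in PFC arrays and 21.5, 25.9 and 38.8 in NAC arrays, Myhas 52.1, 55.2 and 56.8 in PFC arrays and 7.0, 9.4 and 13.5 in NAC arrays and Myh1 43.7, 48.8 and 51.2 in PFC arrays and 2.3, 4.1 and 7.5 in NAC arrays. None of these ranges overlapped. For comparison, a list of 12 skeletal muscle genes, drawn up after these values were seen, had 7 members higher in the PFC and 3 in the NAC, a median of -3.5 points and no large difference. Its mean rank was 34.9 to 37.7 in the PFC and 33.2 to 34.7 in the NAC, and Ckm, the muscle creatine kinase, was 9.8 points higher in the NAC.

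Around the bound of 20 points, 15 called genes lay within 0.2 points above it and 18 within 0.2 points under it. Of the 451 genes with a large difference, 193 had more than 1 probeset. Of their 331 other probesets, 219 were called in the same direction and 40 in the opposite one.

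Among serotonin receptors, the members that favored the NAC did so by a wide margin. Of 13 measured, 4 were higher in the NAC, 3 in the PFC and 6 did not pass, and the 4 NAC receptors were all large. Htr4, which raises cyclic AMP, had 13.4, 20.5 and 25.8 in PFC arrays and 42.9, 56.4 and 60.1 in NAC arrays and was 34.9 points higher in the NAC (SE 1.87), although its other probeset was higher in the PFC. Htr1b, an inhibitory receptor of axon terminals, had 55.2, 62.5 and 66.8 in PFC arrays and 86.4, 92.3 and 93.2 in NAC arrays, and Htr2c, a receptor coupled to Gq, 66.6, 72.7 and 77.0 in PFC arrays and 96.8, 97.5 and 97.7 in NAC arrays. Neither gene overlapped, and the differences were 29.4 and 25.3 points (SE 1.08 and 0.85). Htr1d was 25.7 points higher in the NAC (SE 1.11), and the other probesets of Htr1b, Htr1d and Htr2c were called the same way. Htr1a and Htr1f were higher in the PFC, by 14.8 and 11.3 points (SE 0.92 and 1.37).

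Of 12 measured acetylcholine receptor genes, 6 were higher in the PFC and 2 in the NAC. Besides Chrna5, Chrm3, the muscarinic M3 receptor, had 35.1, 45.4 and 50.0 in PFC arrays and 11.8, 13.3 and 15.7 in NAC arrays, a difference of 30.6 points (SE 1.52), and Chrna4 was 24.9 points higher in the PFC, with both other probesets the same way. Chrm4, the M4 receptor of direct pathway neurons, was 6.5 points higher in the NAC (SE 0.95), with some overlap. Cholinergic neurons are few in the striatum, and 6 of 7 of their markers were higher in the NAC. The list was dim, with means of 21.9 to 27.6 in PFC arrays and 35.3 to 43.5 in NAC arrays. Only 1 member, Lhx8, had a large difference. Slc5a7, Slc18a3, Gbx2 and Chat ranked under 40 in both regions, where probesets carry little signal over background. Slc5a7, the choline transporter, had 4.1, 12.4 and 15.9 in PFC arrays and 21.7, 26.2 and 30.0 in NAC arrays and a difference of 14.4 points (SE 1.09). Chat, which makes acetylcholine, was dim in both regions and 5.3 points higher in the NAC (SE 1.02), while Ache did not pass.

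Genes of GABA synthesis, breakdown (Abat and Aldh5a1) and transport, listed with the GABA-B receptor gene Gabbr1, were higher in the NAC in 7 of 8 cases. None was higher in the PFC. The last, Slc6a13, a transporter also found in the meninges, did not pass with all arrays but was higher in the NAC by 7.58 points (adjusted p = 7.5e-09 by LIMMA) without the PFC arrays of mice 45, 48, 52 and 55. Gad2, a GABA-producing enzyme, had 88.7, 89.8 and 91.8 in PFC arrays and 97.7, 98.6 and 98.8 in NAC arrays, and Gad1 and the vesicular transporter Slc32a1 were also separate between the regions. Their log2 differences were 2.00, 1.02 and 1.35. From means over the probesets of a gene, Slc32a1 was not called (adjusted p = 0.0569 by LIMMA), 4 members were higher in the NAC and none in the PFC. Under centered log2 values 4 members were higher in the NAC and 1 in the PFC. Subunits of the GABA-A receptor were divided, with 7 of 14 higher in the NAC and 4 in the PFC, and centered log2 values gave 5 and 6. Gabra2 and Gabrg1 were 17.5 and 17.1 points higher in the NAC (SE 0.55 and 0.85), and Gabra3 was 11.0 points higher in the PFC (SE 0.64, log2 difference 1.68).

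Glutamate receptors showed single members with large differences. Grik2, a kainate receptor subunit, had 45.0, 50.8 and 53.2 in PFC arrays and 75.3, 79.2 and 80.1 in NAC arrays, and Grin3b, an unusual NMDA receptor subunit, 17.1, 22.9 and 26.3 in PFC arrays and 46.7, 50.6 and 53.7 in NAC arrays. They were 28.5 and 28.4 points higher in the NAC (SE 0.79 and 1.02). Over all 16 ionotropic subunits, 7 were higher in the NAC and 5 in the PFC, and 5 and 10 under centered log2 values. Of 15 genes of metabotropic receptors and glutamate transporters, listed with Homer1, Homer2, Homer3 and Glul, 4 were higher in the NAC and 6 in the PFC. Under centered log2 values the counts were 4 and 10. Grm8, which inhibits release from terminals, had 70.1, 73.0 and 77.6 in PFC arrays and 33.1, 39.5 and 44.8 in NAC arrays and was 33.6 points higher in the PFC (SE 1.25). Grm2 was 15.9 points higher in the PFC (SE 0.95), and Grm5 was higher in the NAC by 1.44 on the log2 scale (SE 0.04).

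Endocannabinoid genes were higher in the PFC in 8 of 10 cases and in none higher in the NAC, with a median of -3.2 points, and the other 2 did not pass. Faah, the enzyme that degrades anandamide, had 75.2, 77.4 and 79.1 in PFC arrays and 47.8, 50.8 and 59.1 in NAC arrays, and Napepld, which takes part in its synthesis, 61.8, 63.8 and 65.8 in PFC arrays and 40.5, 43.2 and 47.4 in NAC arrays. The regions did not overlap in either gene, and the differences were 26.1 and 19.9 points (SE 0.99 and 0.66). Daglb, an enzyme of 2-AG synthesis, was 11.4 points higher in the PFC (SE 0.69).

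Enzymes that end cyclic nucleotide signals were higher in the NAC in 9 of 17 cases and in the PFC in 4, and under centered log2 values in 8 and 8. Pde1c, Pde10a and Pde7b were 26.2, 16.3 and 10.2 points higher in the NAC (SE 1.31, 1.13 and 0.73). Pde5a and Pde1a were 16.3 and 12.8 points higher in the PFC (SE 1.51 and 0.65). Regulators of G protein signaling were higher in the NAC in 10 of 17 cases and in the PFC in 4, and centered log2 values gave 7 and 8. Besides Rgs9, Rgs16 was 13.4 points higher in the NAC (SE 0.53), although both its other probesets were higher in the PFC, and Rgs14 was 8.7 points higher there (SE 0.48). Rgs6 was 14.0 points higher in the PFC (SE 0.57).

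Markers of interneurons were higher in the NAC in 8 of 19 cases and in the PFC in 9, with a median of -0.6 points, and in 6 and 11 under centered log2 values. Pvalb, the parvalbumin of fast-spiking cells, had 91.9, 94.1 and 96.1 in PFC arrays and 54.8, 64.2 and 76.1 in NAC arrays and was 29.8 points higher in the PFC (SE 2.00). Sst, which encodes somatostatin, ranked at 96.9, 97.2 and 97.6 in PFC arrays and 96.6, 97.2 and 98.1 in NAC arrays and was not called. Vip was 22.1 points higher in the PFC (SE 2.82), with NAC arrays of mice 45 and 55 at 90.3 and 85.0 and a difference of 25.8 points without them. Reln and Kit were 9.6 and 16.6 points higher in the NAC (SE 0.47 and 0.62).

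Immediate early genes are transcribed within minutes of neuronal activity and also respond to handling and sacrifice. Of 18 measured, 8 were higher in the PFC, 4 in the NAC and 6 did not pass, and centered log2 values gave 11 and 2. Over all genes the shares were 34.5% and 36.3%, and 55.0% and 25.9% on the centered scale. Fos had 79.8, 90.0 and 95.5 in PFC arrays and 64.3, 69.0 and 80.5 in NAC arrays, a difference of 19.3 points toward the PFC (SE 2.03), with the highest PFC arrays in mice 54 and 49. Arc had 77.2, 81.9 and 91.7 in PFC arrays and 56.7, 62.7 and 68.3 in NAC arrays and was 20.1 points higher in the PFC (SE 1.78), again highest in mice 54 and 49, at 91.7 and 91.6. Bdnf, a growth factor induced by activity, was 24.7 points higher in the PFC (SE 1.66). Egr3 and Fosb went the other way and were 6.0 and 10.7 points higher in the NAC (SE 0.49 and 0.78).

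Genes of non-neuronal cells had small median differences apart from those of oligodendrocyte precursors. Mature oligodendrocyte genes were higher in the NAC in 4 of 15 cases, in the PFC in 1 and did not pass in 10, and Mbp and Mobp, which encode myelin proteins, ranked within 1 point of 100 in every array. Under centered log2 values, which tilt bright genes toward the PFC, 2 were higher in the NAC and 11 in the PFC. The median of the list was -0.53 on that scale and 0.17 after joint quantile normalization. Precursor genes of the lineage were higher in the NAC in all 5 cases, with a median of 7.2 points, and in 4 under centered log2 values. Pdgfra, the receptor that defines these cells, had 81.5, 83.0 and 85.4 in PFC arrays and 89.5, 90.5 and 91.3 in NAC arrays and was 7.2 points higher (SE 0.41), although 1 of its 2 other probesets was higher in the PFC. C1ql1 was 18.0 points higher in the NAC (SE 0.96). Astrocyte genes were split into 6 and 5 of 14, with a median of 0.0 points, and under centered log2 values into 2 and 8. Microglial genes were higher in the NAC in 6 of 11 cases and in the PFC in 1, but in 0 and 7 under centered log2 values, counts that the scale tilts. No direction is given for them. Endothelial and pericyte genes were split into 4 and 4 of 11, or 2 and 9 under centered log2 values.

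Tissues next to the dissected regions were followed by their own lists. Choroid plexus genes had 4 of 9 higher in the NAC and 2 in the PFC, with list means between 24.8 and 31.6 in the PFC and between 31.4 and 40.8 in the NAC. Clic6, a chloride channel protein that binds D2-like receptors, was 43.5 points higher in the NAC (SE 1.61), while Ttr, the transthyretin that defines the plexus, had 76.4, 91.0 and 97.0 in PFC arrays and 56.0, 78.7 and 89.4 in NAC arrays and was 15.3 points higher in the PFC (SE 3.28). Folr1, a folate receptor of the plexus, was also higher in the PFC, by 9.8 points (SE 0.85), so that the list was split. Its 3 large differences were all toward the NAC. Without the NAC arrays of mice 45 and 55, Kl and Otx2 were 21.0 and 21.2 points higher in the NAC. Meningeal genes had 3 of 8 higher in the NAC and 1 in the PFC, with no gene separating the regions. Their mean over the list was 48.8 to 53.4 in the NAC. It was 58.2 to 63.9 in the PFC arrays of mice 45, 48, 52 and 55, above every NAC array, and 42.9 to 47.5 in the other 8, below every NAC array. Without these 4 PFC arrays 5 of the 8 genes were higher in the NAC and none in the PFC, with a median of 7.10 points against 2.6 with them. Ependymal and neurogenic genes had 3 of 9 higher in the NAC and 2 in the PFC, Sox11 by 13.5 points (SE 0.97) in favor of the NAC. Of 10 genes of adenosine receptors and handling, 6 were measured, and the receptors Adora1, Adora2a and Adora2b were not among them. Of the 6, 1 was called in each direction, and 3 and 2 were higher in the NAC and the PFC under centered log2 values. Nt5e, which produces adenosine outside the cell, was 18.8 points higher in the NAC (SE 1.67).

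The same regions were compared in the other treatment groups, on arrays from other mice that had no part in the choice of genes but were normalized together with the ethanol naïve arrays of their region. These were 11 PFC and 12 NAC arrays of the Air Drinking group, 12 and 12 of the CIE NonDrinking group and 12 and 11 of the CIE Drinking group. Of the 235 genes with a large difference toward the NAC, 233, 235 and 235 were called higher in the NAC in these groups, where 6705, 6439 and 6668 of 18192 genes were. Of the 216 genes toward the PFC, 212, 216 and 216 were called higher in the PFC, where 5987, 6048 and 6683 genes were. The difference was 20 points or more again for 205, 196 and 217 of the former and for 175, 192 and 205 of the latter. Drd2 was 42.3, 39.0 and 38.5 points higher in the NAC of these groups, in the same order, and Neurod6 differed by -30.5, -44.5 and -63.8 points (NAC minus PFC). Cux2 differed by 1.7, 6.4 and 9.1 points, in favor of the NAC each time, and was called in 2 of the 3 groups.

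Whether the difference between the regions was itself different in ethanol naïve mice was tested in a fit of all 94 PFC and NAC arrays, as the difference in the Air NonDrinking group minus the mean over the other 3 groups. At an adjusted p of 0.01 or less, 98 of 45027 probesets passed by LIMMA, 9 with a higher and 89 with a lower value of NAC minus PFC, and 5802 had an unadjusted p under 0.05. None of the 98 was the brightest probeset of a gene named above. Drd1, Drd2 and Cux2 had adjusted p of 0.491, 0.571 and 0.385 in this test.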

How the data were processed

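The deposited log2 values were used as the authors left them. Per the labels and the study's methods, arrays of poor quality had been removed, and the rest of each region were summarized by RMA, quantile-normalized and adjusted by ComBat for hybridization batch, a region at a time. Of 45027 probesets, 34939 had 1 gene symbol in the platform annotation, 932 several and 9156 none, and a gene was represented by its brightest probeset over both regions. Percentile ranks within arrays were compared with limma 3.58.1 (R 4.3.3, statmod 1.5.0) between 12 PFC and 12 NAC arrays without a block, adjusted by Benjamini-Hochberg over all probesets or all genes, with calls at 0.01. In data simulated with independent noise from the means and SDs of the 12 PFC arrays, 200 of 45027 probesets were changed by 1 on the log2 scale. They were drawn from the brighter probesets only. Of these, 199 were recovered, with 2 false calls. The simulated data had no deviations shared by the probesets of an array and far fewer changed probesets than were called here. They therefore give no error rate for the calls above. By the labels both arrays with a mouse number come from the same animal. Deviations of its arrays from the group means correlated with r from -0.39 to 0.08 (mean -0.091, 12 pairs). For arrays of different mice r ran from -0.37 to 0.52 (mean 0.012, 132 pairs). It was over 0.1 in 32 of those pairs and in 0 of the 12, so that arrays with the same mouse number were not more alike. Depth is not counted on arrays, and the number of arrays sets the precision.

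The region comparison, the genes and the lists were chosen with earlier results of these data known, and the muscle list was added after values had been seen. Named were Drd1, Drd2 and Cux2, the 15 genes with the largest difference in each direction among large calls whose arrays did not overlap, and any member of a list beside its counts. Alternatives concerned the scale, dim probesets, the variance model, array weights, the choice of probeset, the mouse as a block and single arrays. Promoter sequences came from RefSeq (GRCm38.p6). The other brain regions were not used here.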

Additional observations from a re-analysis of the deposited data

Results flagged for a closer look

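A test of the difference between treatment groups picked out 98 of 45027 probesets whose difference between the regions was not the same in Air NonDrinking mice as in the mean of the other 3 groups (LIMMA, adjusted p of 0.01 or less, 94 arrays). Of these, 89 had a lower and 9 a higher value of NAC minus PFC in the Air NonDrinking group, and 82 were called higher in its PFC. Among the 98, 14 were the brightest probeset of a gene, 60 were other probesets and 24 had no single gene symbol. Without the NAC arrays of mice 45 and 55, 69 of the 98 were still called.

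The 3 probesets with a gene symbol and the lowest p each had an adjusted p of 1.6e-04 by LIMMA, and none was the brightest of its gene. For Plxnc1, a semaphorin receptor, the difference (NAC minus PFC) was -27.2 points in the Air NonDrinking group and -13.2 points in the mean of the others, so that they were -14.0 points apart. For Gnai1, an inhibitory G protein subunit, it was -10.7 against -7.5 points, which are -3.1 points apart. For Smg1, a kinase of nonsense-mediated decay, it was -21.0 against -12.1 points, which are -8.9 points apart.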

How the results depend on the processing

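The number of called probesets was 31525 in the main setting and 31921 with normal scores of the ranks. It was 32001 after joint quantile normalization, 31773 with trend and robust variances and 33168 with array weights. Centered log2 values gave 35769 and moved the balance of directions. There 12274 were higher in the NAC and 23495 in the PFC, against 15409 and 16116 in the main setting. When dim probesets (mean percentile under 40 in both regions) were left out, 22669 of the brighter ones were called. With the mouse as a replicate block, 29947 probesets and 451 genes were called, and of the named genes Npy lost its call. Numbers of genes with a large difference depended on the scale on which large was set. At a log2 difference of 1 there were 1626 after joint quantile normalization and 2360 with centered log2 values, against 451 at 20 points, and for normal scores no bound was set, so that no number was obtained. The other settings gave 380 genes from the mean over the probesets of each gene, 415 without dim probesets, 451 with trend and robust variances and 492 with array weights. Leaving out each of the 24 arrays in turn, an alternative chosen after seeing the data, gave 30965 to 31579 probesets and 442 to 475 genes. Leaving out the NAC arrays of mice 45 and 55 together, chosen likewise, gave 30929 and 494, and leaving out the PFC arrays of mice 45, 48, 52 and 55, also chosen after seeing the data, gave 30415 and 472, with the calls of Npy and Sp8 lost and that of Slc6a13 gained. Of the named genes, Eya1 (0.40 points, NAC minus PFC) and Rgs16 (-4.00 points) reversed with that mean, and Sfxn1, Nectin3 and Slc32a1 lost their call under it. The test between treatment groups called 124 probesets with a random replicate block (consensus correlation 0.030), 89 with centered log2 values, 140 without dim probesets and 85 without the NAC arrays of mice 45 and 55, against 98. A rank near 100 leaves little room for a difference, and dim probesets carry little signal over background.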
